A study of Mus musculus with 12 samples.

Results

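The transcripts of 4 NF-κB subunits (Nfkb1, Nfkb2, Rela and Relb) and 6 inhibitors of the pathway (Nfkbia, Nfkbib, Nfkbie, Nfkbiz, Tnfaip3 and Tnip1) were examined in macrophages sorted from mouse tumours. These 10 genes were taken by name from a table of 24781 rows. All 10 were present and all 10 passed the filter on low values. In brief, none of them differed between mice given picrotoxin and mice given the solvent DMSO once p-values were adjusted over all genes. The lowest unadjusted p belonged to Nfkbiz, with a fitted level 1.29-fold that of DMSO libraries.

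Picrotoxin blocks the ionotropic receptor for GABA, and the study asked what blocking this receptor does to macrophages inside a tumour. Wild-type mice received either DMSO or picrotoxin by intraperitoneal injection, starting on the day before MC38 cells, a mouse colon adenocarcinoma line, were inoculated into the skin and continuing every other day. On day 7, CD45+CD11b+F4/80high cells were sorted from the tumours, and each library was made from 100 of them. By the labels there are 6 libraries of either treatment, carrying the numbers 1 to 6 and described as independent preparations. The study's methods assign each library to a separate mouse, but its figure text names fewer mice than libraries, so the p-values measure the spread between these libraries, which may in part be technical, and would be too small if some shared a mouse. The methods draw on C57BL/6J and C57BL/6N mice of both sexes and do not say which library came from which. A systemic antagonist reaches every cell that carries its receptor, so the comparison is of macrophages from treated mice rather than of macrophages treated directly.

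NF-κB is a family of dimeric transcription factors that is held in the cytoplasm of resting cells by IκB proteins. Signals from TNF, interleukin-1 and Toll-like receptors activate the IκB kinase complex, the IκB proteins are degraded, and the freed dimers enter the nucleus. Several of the genes they switch on encode brakes on the same pathway, among them IκBα and the ubiquitin-editing enzyme A20, so that in macrophages a response to an inflammatory signal is followed by its own restraint. Much of this control acts on proteins and their location, which transcript counts do not measure.

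The values are numbers of molecules: each transcript fragment received a molecular barcode when it was copied with an oligo-dT primer, and barcodes were counted per gene. Library totals ran from 201697 to 309617 molecules. The 10 genes together took 0.085% ± 0.0137 of the molecules in DMSO libraries and 0.0886% ± 0.0126 in picrotoxin libraries (mean ± SD, n = 6 each, as throughout). Normalised molecules are counts divided by a DESeq2 size factor. They compare 1 gene between libraries and not different genes with each other. Each library is a bulk sample of sorted cells, so fewer cells that express a gene and fewer transcripts per cell cannot be told apart.

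The sorted cells carried the markers of the gate. Adgre1, which encodes F4/80, had 46 to 98 molecules per library, Itgam, which encodes CD11b, had 95 to 215, Csf1r had 157 to 282 and Cd68 had 87 to 152. Summed lists of neutrophil, dendritic cell and B cell genes reached at most 10, 7 and 3 molecules in a library. The 5 monocyte genes reached 383 molecules, most of them Ccr2, which had 156 to 315 per library. Their summed share was 0.116% ± 0.0197 in DMSO and 0.127% ± 0.02 in picrotoxin libraries (exact permutation p = 0.357). Among these 5, 1 was higher and 1 lower with picrotoxin at an unadjusted p under 0.05, and 0 passed adjustment (edgeR). T and NK cell genes reached 23 molecules in picrotoxin 6, of which 20 were Gzmb. The 5 epithelial genes listed for MC38 cells reached 21 molecules and summed to 0.00426% ± 0.00112 in DMSO and 0.00671% ± 0.00266 in picrotoxin libraries (exact permutation p = 0.0649). Nearly all of these were Cdh1 (edgeR log2 fold change 0.70, adjusted p = 0.428), and Epcam, Krt18 and Krt19 were at 0. Of 11 macrophage genes, Itgam and Mrc1 were higher with picrotoxin at an unadjusted p under 0.05 (edgeR adjusted p = 0.408 and 0.428), and the summed share was 1.28% ± 0.172 against 1.36% ± 0.0505 (exact permutation p = 0.318). Some library properties moved with the groups. Picrotoxin libraries had more of the ribosomal RNA precursor Rn45s (13% ± 1.32 against 10.1% ± 2.42, exact permutation p = 0.0368) and fewer detected genes (10000 ± 139 against 10400 ± 409, exact permutation p = 0.0455). The 13 fibroblast and matrix genes summed to 0.202 to 0.387% of molecules in picrotoxin libraries and 0.199 to 1.05% in DMSO libraries, with the highest shares in DMSO 3 (0.812%) and DMSO 5 (1.05%). Most of this sum came from Fn1 and Lrrc17, and without them the shares were 0.00396 to 0.0238% and 0.00685 to 0.292%. Fn1 itself had 370 ± 139 normalised molecules in DMSO and 375 ± 91.8 in picrotoxin libraries. Of the 10 matrix genes that could be tested, 9 were lower with picrotoxin at an unadjusted p under 0.05 and 0 passed adjustment (edgeR). Over all 9580 tested genes, 352 were higher and 388 lower at that unadjusted threshold. High values in few libraries weighed on the matrix genes. In DMSO libraries Col1a1 had a median of 0.976 and a highest value of 160 normalised molecules, and Lrrc17 had 548 and 1320. The summed shares had an exact permutation p = 0.123. The part of these properties in the results below was not tested, except that the fits were repeated without the Rn45s row and without DMSO 3 and 5.

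Dimers of the family recognise κB sites, short stretches of DNA with a run of G at one end and of C at the other. The stretch from 250 bases before to 50 bases after each start site was searched on both strands for the κB consensus decamer. Its degenerate form was used (3 G, then a purine, any 2 bases, 2 pyrimidines and 2 C). RefSeq promoter sequences (GRCm38.p6, 250 bases before and 50 after each start) were at hand for 7 of the 10 genes, and those of Nfkb1, Relb and Nfkbiz were not analysed here. At least 1 match was found for 5 of the 7, namely Nfkb2, Nfkbia, Nfkbie, Tnfaip3 and Tnip1, whereas the windows of Rela and Nfkbib held none. Of all 27025 genes with such a sequence, 9.55% had a match (8.46% of 32851 promoters). The matches upstream of the inhibitor genes are printed below from 5′ to 3′ on the strand of the gene, because κB sites near inhibitor genes are the known means by which the pathway induces its own brakes. Capitals mark the letters that match on either strand. A match describes the letters, and binding was not measured. The Tnfaip3 stretches lie between annotated exons of a longer transcript form of the gene.
Nfkbia (chr12:55492648-55492701, minus strand, match 29 to 20 bases before the start): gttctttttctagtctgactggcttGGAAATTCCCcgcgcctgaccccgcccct
Nfkbie (chr17:45555569-45555628, plus strand, match 106 to 97 bases before the start): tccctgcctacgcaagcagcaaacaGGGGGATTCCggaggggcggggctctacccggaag
Tnip1 (chr11:54962962-54963023, minus strand, match 58 to 47 bases before the start): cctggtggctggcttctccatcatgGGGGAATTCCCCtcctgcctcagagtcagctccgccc
Tnfaip3, distal (chr10:19015501-19015547, minus strand, match 125 to 116 bases before the start): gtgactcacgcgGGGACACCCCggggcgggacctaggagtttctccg
Tnfaip3, proximal (chr10:19015411-19015447, minus strand, match 12 to 3 bases before the start): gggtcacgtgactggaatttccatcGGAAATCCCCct

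The plot of normalised molecules by library shows the 10 genes side by side. In each of them the values of the DMSO and picrotoxin libraries overlapped. The share of all tested genes whose groups overlap was not counted, so this is a description and sets the 10 apart from no other genes.

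**Figure D1:**
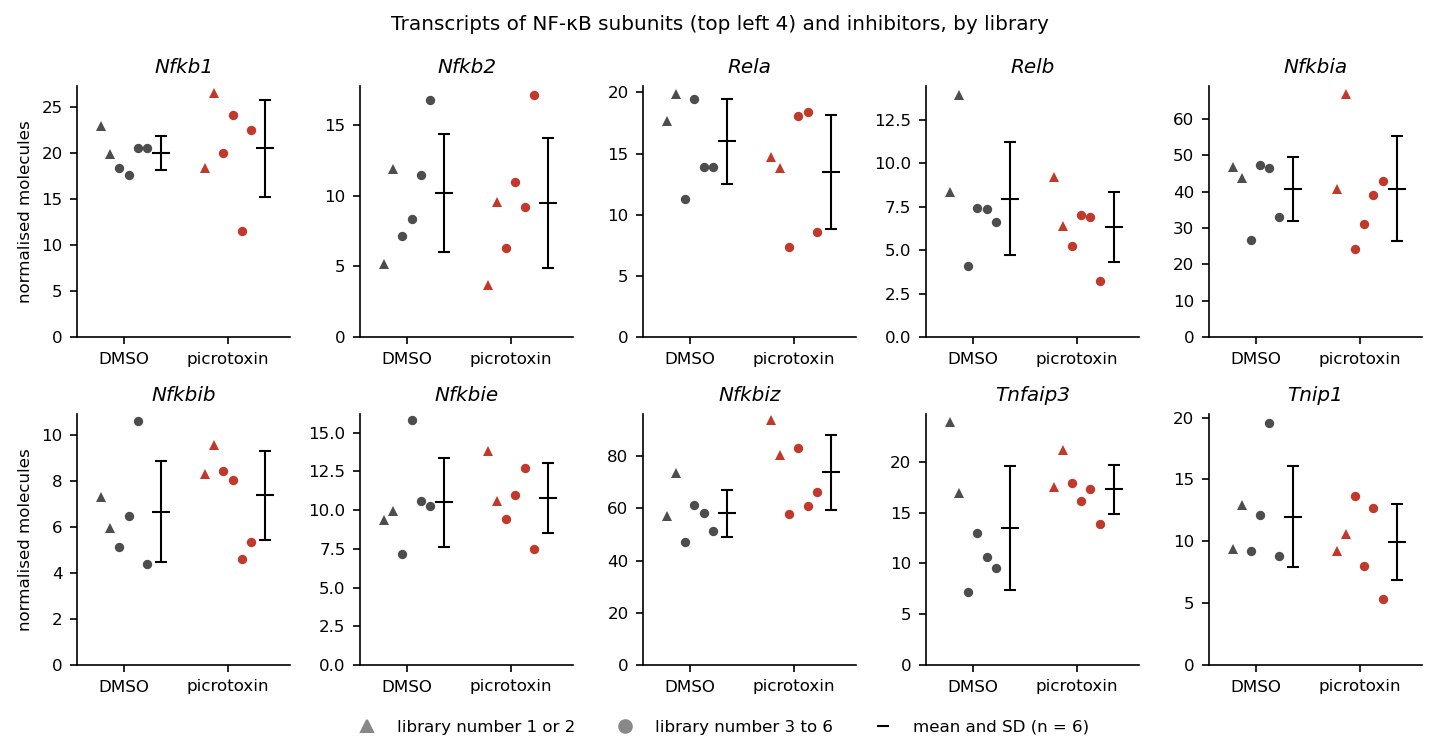
Normalised molecules (counts divided by a size factor, linear axis from 0) of each of the 10 genes in the 6 DMSO (grey) and 6 picrotoxin (red) libraries, in order of library number, with bars for mean ± SD. Triangles are libraries 1 and 2, circles are libraries 3 to 6; Nfkbiz lies between 47.1 and 73.5 in DMSO and between 57.8 and 94 in picrotoxin libraries, and Tnfaip3 in picrotoxin libraries stays between 13.9 and 21.2.

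With edgeR, 5 of 9580 tested genes had an adjusted p under 0.05, which is 0.0522% of them, and none of the 10 was among these. At an unadjusted p under 0.05, 740 genes passed, or 7.72%, and 1 of the 10 did so, namely Nfkbiz. A count of 1 in 10 is close to this background. DESeq2 found 1 of the 10, again Nfkbiz, at an unadjusted p under 0.05, gave it an adjusted p of 0.292 and left the other 9 without an adjusted p. In limma-voom the counts at an adjusted and an unadjusted p under 0.05 were 0 and 2, the additional gene being Tnfaip3 (log2 fold change 0.49, unadjusted p = 0.0446, adjusted p = 0.632). Of the 10 log2 fold changes, 6 were positive and 4 negative, with a median of 0.035, and over all tested genes 49.3% were positive with a median of -0.0052. Where an interval is given below, it is the 95% interval of the edgeR log2 fold change of picrotoxin against DMSO.

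Among the subunits, the nearest to equal was Nfkb1 (chromosome 3, 135584655 to 135691547, minus strand), which encodes p105, the precursor of the p50 subunit and itself an IκB-like protein. It had a lowest, median and highest value of 17.6, 20.2 and 22.9 normalised molecules in DMSO and 11.5, 21.2 and 26.5 in picrotoxin libraries. The picrotoxin values lay on both sides of the DMSO range, with 3 of 6 outside it. The means were 20 ± 1.84 and 20.5 ± 5.27, and the log2 fold change was 0.06 (SE 0.19, interval -0.33 to 0.44, edgeR adjusted p = 0.979). The interval corresponds to 0.796-fold to 1.36-fold. An annotated gene model, Gm43430, overlaps Nfkb1 on the same strand, so their reads might not be separable.

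Rela (chromosome 19, 5637483 to 5648130, plus strand) encodes p65, the subunit that carries the transactivation domain of the most common dimer. Its lowest, median and highest values were 11.3, 15.8 and 19.9 in DMSO and 7.36, 14.3 and 18.4 in picrotoxin libraries. Picrotoxin 3 and 6, at 7.36 and 8.57, lay below every DMSO library, whereas picrotoxin 4 and 5 lay above 18. Means were 16 ± 3.49 and 13.5 ± 4.66, and the log2 fold change was -0.23 (SE 0.23, interval -0.70 to 0.25, edgeR adjusted p = 0.88). Leaving out 1 library at a time moved it between -0.33 (without picrotoxin 4) and -0.10 (without picrotoxin 3).

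Relb and Nfkb2 encode the partners of the non-canonical branch, RelB and p100, the precursor of p52. Relb (chromosome 7, 19606217 to 19629438, minus strand) ranged from 4.1 to 13.9 with a median of 7.39 in DMSO and from 3.21 to 9.22 with a median of 6.64 in picrotoxin libraries. In 5 of 6 picrotoxin libraries it was below the DMSO mean of 7.95 ± 3.25, but the highest DMSO value came from DMSO 2 alone, since the others did not exceed 8.32. The picrotoxin mean was 6.33 ± 2, with a log2 fold change of -0.29 (SE 0.31, interval -0.92 to 0.35, edgeR adjusted p = 0.889). Without DMSO 2 the estimate was -0.07.

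Nfkb2 (chromosome 19, 46304320 to 46312385, plus strand) ranged from 5.2 to 16.8 with a median of 9.9 in DMSO and from 3.69 to 17.1 with a median of 9.38 in picrotoxin libraries. Library 1 had the lowest and library 6 the highest value in both groups. The means of 10.2 ± 4.15 and 9.49 ± 4.58 gave a log2 fold change of -0.15 (SE 0.31, interval -0.77 to 0.47, edgeR adjusted p = 0.953). On the opposite strand Nfkb2 overlaps Psd and AC114539.1, and it is not stated whether strand was used in counting.

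The inhibitors fall into IκB proteins that retain dimers in the cytoplasm (Nfkbia, Nfkbib and Nfkbie), a nuclear IκB protein (Nfkbiz) and the ubiquitin-editing pair Tnfaip3 and Tnip1. Nfkbia (chromosome 12, 55489410 to 55492647, minus strand) encodes IκBα, the rapidly resynthesised inhibitor that ends an NF-κB response. Its values in DMSO libraries 1 to 6 were 46.8, 43.7, 26.6, 47.3, 46.6 and 33, and in picrotoxin libraries 1 to 6 they were 40.6, 66.9, 24.2, 31.1, 39.1 and 42.9. Library 3 was the lowest of each group, and picrotoxin 2 stood above all other libraries. The means were 40.7 ± 8.75 and 40.8 ± 14.5, with a log2 fold change of 0.02 (SE 0.19, interval -0.36 to 0.39, edgeR adjusted p = 0.996), or between 0.779-fold and 1.31-fold. Its sign was not stable: it was negative in 13 of 23 alternative fits, including -0.18 without picrotoxin 2, and positive in 10, including 0.13 without picrotoxin 3.

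Nfkbib and Nfkbie encode IκBβ and IκBε, which bind overlapping sets of dimers. Nfkbib (chromosome 7, 28758251 to 28767512, minus strand) had 4 to 13 molecules per library, and its normalised values ran from 4.39 to 10.6 with a median of 6.23 in DMSO and from 4.6 to 9.56 with a median of 8.16 in picrotoxin libraries. All 6 picrotoxin values were inside the DMSO range. The means were 6.65 ± 2.2 and 7.37 ± 1.94, with a log2 fold change of 0.17 (SE 0.30, interval -0.44 to 0.78, edgeR adjusted p = 0.948). It was 0.05 without DMSO 6 and 0.37 without DMSO 5. Sirt2 and Ccer2 overlap Nfkbib on the opposite strand.

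Nfkbie (chromosome 17, 45555703 to 45563169, plus strand) ran from 7.17 to 15.8 with a median of 10.1 in DMSO and from 7.5 to 13.8 with a median of 10.8 in picrotoxin libraries. Here, too, every picrotoxin value was inside the DMSO range. The means were 10.5 ± 2.85 and 10.8 ± 2.25, with a log2 fold change of 0.05 (SE 0.25, interval -0.45 to 0.55, edgeR adjusted p = 0.983).

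Nfkbiz (chromosome 16, 55811375 to 55838899, minus strand) encodes IκBζ, which differs from the other inhibitors in that it acts in the nucleus with p50 and is needed for a later set of inflammatory genes to be induced in macrophages. The values in DMSO libraries 1 to 6 were 57.2, 73.5, 47.1, 61.2, 58.1 and 51.3, and in picrotoxin libraries 1 to 6 they were 94, 80.7, 57.8, 83.3, 61 and 66.4. Of the picrotoxin libraries, 3 (numbers 1, 2 and 4) lay above every DMSO library, 5 of 6 lay above the DMSO mean, and the lowest, number 3, was close to the DMSO median of 57.7. The mean was 58.1 ± 9.1 in DMSO and 73.9 ± 14.3 in picrotoxin libraries. The log2 fold change was 0.37 (SE 0.14, interval 0.09 to 0.65), or 1.29-fold with an interval of 1.06-fold to 1.57-fold, with an unadjusted p = 0.0116 and an adjusted p = 0.469 by edgeR. DESeq2 gave 0.36 with an unadjusted p = 0.0237 and an adjusted p = 0.292. The exact two-sided permutation test on the normalised values, over 924 assignments of libraries to groups, gave p = 0.0519.

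The positive direction of Nfkbiz held in all 23 alternative fits, with log2 fold changes from 0.27 to 0.45, and its adjusted p ranged from 0.262 to 0.903. Without picrotoxin 1 the unadjusted p was 0.071, and without DMSO 3 and 5, the libraries with the highest matrix shares, the log2 fold change was 0.30 with an unadjusted p = 0.0531 (adjusted p = 0.903, edgeR). With the Rn45s row removed it was 0.34 with an unadjusted p = 0.0165 (adjusted p = 0.528, edgeR).

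Tnfaip3 (chromosome 10, 19000910 to 19015657, minus strand) encodes A20, which edits ubiquitin chains on signalling proteins below the TNF and Toll-like receptors and thereby shuts the pathway off. In DMSO libraries 1 to 6 its values were 23.9, 16.9, 7.17, 13, 10.6 and 9.52, and in picrotoxin libraries 1 to 6 they were 17.5, 21.2, 17.9, 16.1, 17.3 and 13.9. All 6 picrotoxin libraries lay above the DMSO mean, yet none lay outside the DMSO range, because DMSO 1 had the highest value of all 12. The means were 13.5 ± 6.08 and 17.3 ± 2.4, with a log2 fold change of 0.39 (SE 0.24, interval -0.09 to 0.88, edgeR adjusted p = 0.754), or 1.31-fold with an interval of 0.941-fold to 1.84-fold. The exact permutation test gave p = 0.18. A single DMSO library weighed on this estimate, since without DMSO 1 the log2 fold change was 0.62 with an unadjusted p = 0.0117 (adjusted p = 0.399, edgeR), and without DMSO 3 and 5 it was 0.18.

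Tnip1 (chromosome 11, 54910785 to 54962917, minus strand) encodes ABIN1, an adaptor that brings A20 to its substrates. It ran from 8.79 to 19.6 with a median of 10.7 in DMSO and from 5.36 to 13.7 with a median of 9.92 in picrotoxin libraries. DMSO 5 was the highest and picrotoxin 6 the lowest, and the other libraries lay close together between 8.03 and 13.7. The means were 12 ± 4.1 and 9.92 ± 3.06, with a log2 fold change of -0.28 (SE 0.26, interval -0.81 to 0.26, edgeR adjusted p = 0.869). Without DMSO 5 the estimate was -0.07.

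**Figure D2:**
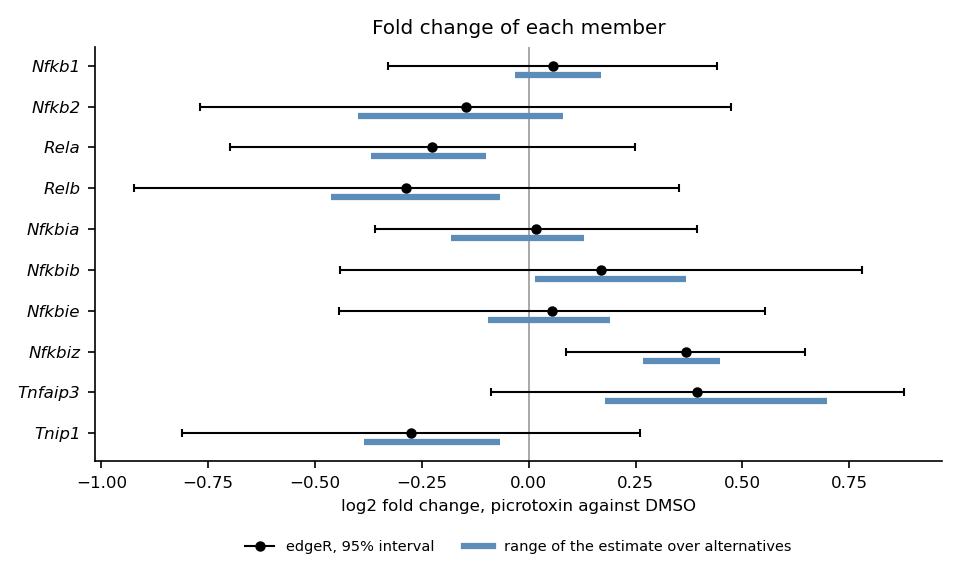
Log2 fold change of picrotoxin against DMSO for the 10 genes (points, with 95% intervals as black bars) and the lowest to highest estimate over up to 23 alternative fits (blue bars). Of the 10 intervals, 9 include 0 and that of Nfkbiz runs from 0.09 to 0.65; the blue bars of Nfkb1, Nfkb2, Nfkbia and Nfkbie cross 0.

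Summed by role, the 4 subunits had 54.1 ± 7.99 normalised molecules in DMSO and 49.8 ± 7.74 in picrotoxin libraries, and the 6 inhibitors had 141 ± 25.1 and 160 ± 26.3. The number of inhibitor molecules per subunit molecule, which does not depend on library size, ran from 2.03 to 2.95 in DMSO and from 2.62 to 3.98 in picrotoxin libraries, with means of 2.62 ± 0.359 and 3.25 ± 0.508. These ranges overlapped. The ratio was formed with the values known and got no test, and it is an index of barcodes counted rather than of proteins. Nfkbiz, whose product acts in the nucleus, alone made up 58.1 ± 9.1 of the inhibitor sum in DMSO and 73.9 ± 14.3 in picrotoxin libraries. Most of the difference in that sum came from it, so the ratio does not measure how far dimers are retained in the cytoplasm. Nfkb1, counted as a subunit, also encodes an IκB-like protein.

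The genes also differed in how much they varied among libraries of the same group. Counting noise alone gives a chi-square per degree of freedom near 1. Nfkbia reached 3.48, compared with a median of 1.31 and an upper quartile of 1.84 among 705 genes of similar level, so its libraries differed well beyond counting. Nfkb2 reached 2.06 (median 1.05 among genes of similar level), Nfkbiz 2.1 (1.45) and Tnfaip3 1.57 (1.09). By contrast, Nfkb1, Nfkbib, Nfkbie and Relb had 0.698, 0.676, 0.627 and 0.991, and for these 4 the spread was no wider than counting noise. Rela (1.16) and Tnip1 (1.27) lay slightly above it. DMSO 3 was the lowest DMSO library for 6 of the 10 genes, namely Rela, Relb, Nfkbia, Nfkbie, Nfkbiz and Tnfaip3. How many of all tested genes were lowest in DMSO 3 was not counted, so this is not read as particular to the 10.

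**Figure D3:**
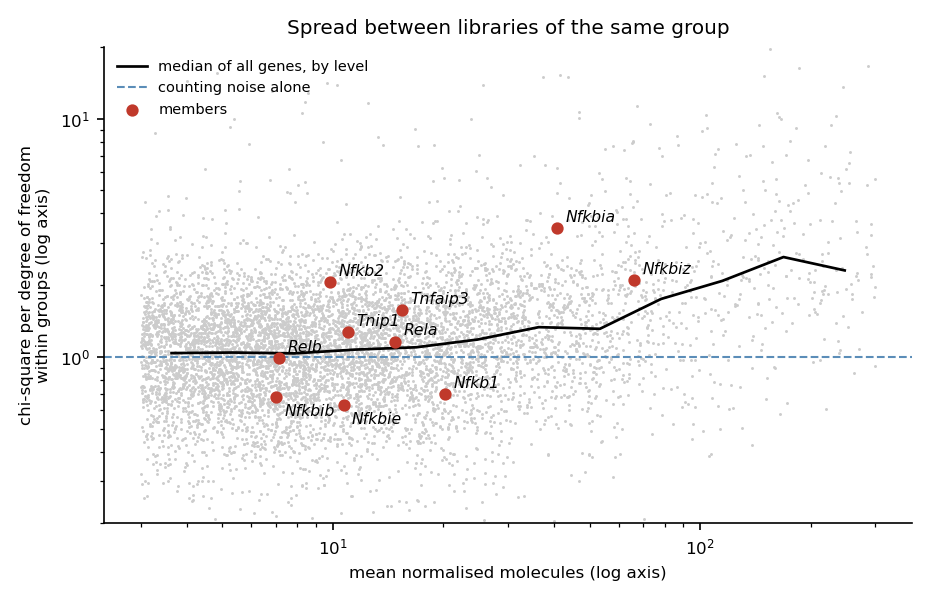
Chi-square per degree of freedom within groups (log axis) against mean normalised molecules (log axis) for tested genes (grey), with the 10 genes in red, the median by level as a black line and the value of counting noise alone, 1, as a dashed line. Nfkbia (3.48) lies furthest above the median line, and Nfkb1, Nfkbib, Nfkbie and, by a small margin, Relb lie below it.

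Library numbers 1 and 2 were also set against 3 to 6. No batch is named in the labels, and the split was taken from earlier results of these same data, so the counts of genes that follow it describe it and do not test it. With this split as a term beside the treatment, edgeR found 99 of 9580 genes (1.03%) at an adjusted p under 0.05 for the split and 929 (9.7%) at an unadjusted one. None of the 10 passed the adjusted threshold, but 4 passed the unadjusted one, all lower in libraries 3 to 6. Their log2 differences were -0.67 for Relb, -0.62 for Tnfaip3, -0.45 for Nfkbia and -0.34 for Nfkbiz, with edgeR adjusted p of 0.437, 0.245, 0.282 and 0.267. What the numbers stand for is not stated.

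Within libraries 3 to 6, Tnfaip3 ran from 7.17 to 13 in DMSO and from 13.9 to 17.9 in picrotoxin libraries, with means of 10.1 ± 2.42 and 16.3 ± 1.74 (n = 4 each). The share of all genes with separate ranges in this subset was not counted, so these ranges are a description. Over all libraries the groups overlapped. The log2 fold change of Tnfaip3 in this subset was 0.70 with an unadjusted p = 0.0162 and an adjusted p = 0.384 by edgeR. In libraries 1 and 2 the means were 20.4 in DMSO and 19.4 in picrotoxin (n = 2 each). The test of the difference between these estimates, an interaction term chosen after the data were seen, gave 0.78 on the log2 scale with an unadjusted p = 0.0789 and an adjusted p = 0.861 (edgeR), so a difference between the subsets was not shown. For Nfkbiz the means were 65.4 and 87.4 in libraries 1 and 2 and 54.4 and 67.1 in libraries 3 to 6, where the log2 fold change was 0.32 (unadjusted p = 0.0446, adjusted p = 0.505, edgeR). With the split as a term, Nfkbiz had a log2 fold change of 0.36 with an unadjusted p = 0.00552 and an adjusted p = 0.302 (edgeR). Because the split was taken from these same data and Nfkbiz differed along it, this p may be too small. It is given as a description and adds no evidence to the fit without the split.

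The rest of the pathway was read from lists of known components and targets. Most genes named from them were chosen for a low p in these same libraries. How many of their picrotoxin libraries lie on 1 side of the DMSO mean follows in part from that choice. The same count was not made over all genes. The list of other NF-κB and IκB family members and of the kinase complex held 16 genes, all tested. None of them had an unadjusted p under 0.05 in edgeR or DESeq2. Their median log2 fold change was 0.025. Rel, which encodes c-Rel, had 9.16 ± 3.63 normalised molecules in DMSO and 9.01 ± 4.9 in picrotoxin libraries. The lowest p was that of Map3k7, which encodes the kinase TAK1 upstream of the IκB kinases, at 11.9 ± 1.43 and 8.67 ± 1.19 (log2 fold change -0.45, SE 0.23, edgeR adjusted p = 0.73), with 6 of 6 picrotoxin libraries below the DMSO mean. Of the 60-base stretches of Map3k7, 3% are shared with Gm8188, so its count is uncertain. Next was Tab1, its binding partner, at 3.2 ± 0.907 and 1.73 ± 1.28 (log2 fold change -0.82, SE 0.54, edgeR adjusted p = 0.758).

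Of 28 receptor-proximal adaptors and ubiquitin enzymes, 2 had an unadjusted p under 0.05 in edgeR and 0 in DESeq2, and none passed adjustment. The 2 make up 7.14% of the list, which is no more than the 7.72% of all tested genes. Irak2, a kinase-like adaptor of the interleukin-1 and Toll-like receptors, had 6.86 ± 1.92 normalised molecules in DMSO and 10.2 ± 2.74 in picrotoxin libraries, above the DMSO mean in 6 of 6 (log2 fold change 0.61, SE 0.28, edgeR adjusted p = 0.62). N4bp1, a restraint on NF-κB signalling, had 23 ± 6.62 and 29.7 ± 6.53 (log2 fold change 0.39, SE 0.19, edgeR adjusted p = 0.642). The median log2 fold change of this list was 0.028.

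Of 47 target genes, 44 were tested, since Il6, Ptx3 and Mmp9 had too few molecules. Of the 44, 7 had an unadjusted p under 0.05 (15.9%, 3 higher and 4 lower) in edgeR, where 7.72% of all tested genes did so, and 3 in DESeq2, where 387 of 9580 did. None passed adjustment, and the median log2 fold change was 0.082. Nos2, the inducible nitric oxide synthase of inflammatory macrophages, had 9.11 ± 3.2 normalised molecules in DMSO and 14.5 ± 3.16 in picrotoxin libraries, above the DMSO mean in 6 of 6 (log2 fold change 0.65, edgeR adjusted p = 0.481). Icam1, an adhesion molecule, had 16.5 ± 1.69 and 22.5 ± 4.42, again above the DMSO mean in 6 of 6 (log2 fold change 0.46, edgeR adjusted p = 0.507). In the other direction, Ccl2, a chemokine that attracts monocytes, had 178 ± 36.4 and 143 ± 17.2, and 6 of 6 picrotoxin libraries lay below the mean of the DMSO ones (log2 fold change -0.31, edgeR adjusted p = 0.493). The Ccl2 estimate was -0.23 without DMSO 1 and also without DMSO 2. In libraries 3 to 6 alone it was -0.13 (edgeR unadjusted p = 0.285), where Nos2 and Icam1 had 0.76 and 0.50. Other fits weakened the higher genes instead. Without DMSO 3 and 5 the edgeR log2 fold change was 0.50 for Nos2, 0.55 for Icam1 and -0.39 for Ccl2. Nos2 then missed the unadjusted threshold, whereas Icam1 and Ccl2 passed it. Icam1 missed it without picrotoxin 3 (log2 fold change 0.36) and in DESeq2, where Nos2 and Ccl2 passed.

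The smallest p of the target list belonged to Saa3, an acute phase gene, and rested on a single library. DMSO 5 held 98 molecules of it and no other library more than 1. DMSO 5 was also the library with the highest matrix share. Tnf and Il1b, which are both targets and triggers of the pathway, had 14.6 ± 5.94 and 157 ± 31.1 normalised molecules in DMSO and 13 ± 2.83 and 167 ± 49.1 in picrotoxin libraries, with edgeR adjusted p of 0.952 and 0.927.

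Because sorting from tissue can itself induce stress and immediate-early genes, these were read beside the members. Of 18 such genes, 4 had an unadjusted p under 0.05 (22.2%), all higher with picrotoxin, and 1 passed adjustment in edgeR. At the same thresholds 7.72% and 0.0522% of all tested genes passed. The gene that passed adjustment was Hspa1b, which encodes a heat-shock protein of the HSP70 family, at 10.8 ± 4.35 and 36.8 ± 26 normalised molecules (log2 fold change 1.74, edgeR adjusted p = 0.0301), above the DMSO mean in 4 of 6 picrotoxin libraries. The adjusted call was lost in limma-voom (adjusted p = 0.471), with only genes of a mean above 10 (0.0787), without DMSO 3 and 5 (0.332) and without any single one of DMSO 3, 5 and 6 and picrotoxin 2, 3, 4 and 5 (0.0811 to 0.204), and DESeq2 gave no adjusted p for it. The call held in the remaining alternative fits. Among them, edgeR gave an adjusted p = 0.00576 with the split as a term and 2.32e-05 with library numbers as a block. Hspa1a, a near-identical copy with which it can share reads, had 13 ± 7.58 and 31.5 ± 11.1 (log2 fold change 1.25, edgeR adjusted p = 0.0603). Fosb had 49.4 ± 9.71 and 74.1 ± 15.1 (log2 fold change 0.58, edgeR adjusted p = 0.126) and Atf3 had 72 ± 11.6 and 86.3 ± 12.7 (log2 fold change 0.28, edgeR adjusted p = 0.62). Hspa1a and Fosb passed adjustment in edgeR with the split as a term (adjusted p = 0.0101 and 0.0209) and with the block (0.002 and 0.0224). In limma-voom they did not (adjusted p = 0.0961 and 0.305). The split was taken from these same data, and the library numbers were not taken as pairs. With the block, Saa3, which rested on a single library, also had an edgeR adjusted p = 2.25e-06. The values with the split and the block, those of Hspa1b included, are therefore only a description. Summed, the 18 genes had 1810 ± 84.3 normalised molecules in DMSO and 2000 ± 182 in picrotoxin libraries (exact permutation p = 0.0541). Nfkbia and Nfkbiz are themselves known to respond to handling of cells, and its part in their values was not tested.

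**Figure D4:**
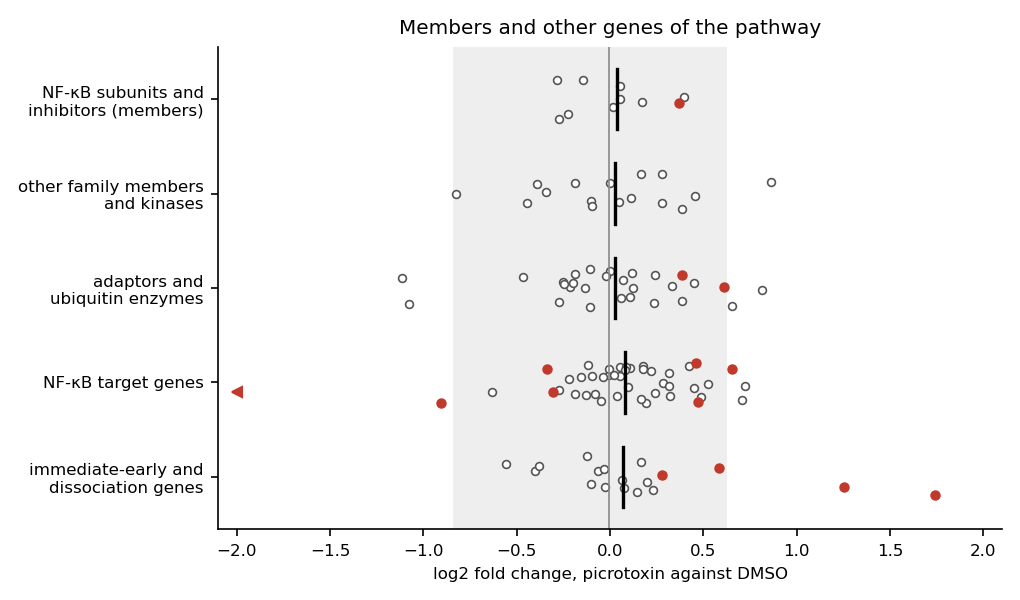
Log2 fold change of picrotoxin against DMSO for each tested gene of the 10 members and of 4 other lists, each point a gene, filled in red where the unadjusted edgeR p was under 0.05, with black lines for list medians and a grey band from the 5th to the 95th percentile of all 9580 tested genes. Saa3, at -5.66, is drawn as an arrow at the left edge, and the medians of the 5 lists lie between 0.025 and 0.082.

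The profiles over the 12 libraries, after each group's mean had been taken off, were used to name the genes most like each member with at least 10 normalised molecules on average. They are the highest of 3740 genes searched, share libraries and their depth with the member, and are given as a description. Tnfaip3 was most like Pld4 (Pearson r = 0.91, Spearman rho = 0.93), Fam26f (r = 0.902, rho = 0.769) and H2-D1 (r = 0.899, rho = 0.594). Without the 2 libraries farthest from the median of Tnfaip3, r was 0.924, 0.657 and 0.613. Nfkbiz was most like Senp6 (r = 0.845), Xiap (r = 0.829) and Vegfa (r = 0.815), and Nfkbia was most like Ost4 (r = 0.896), Clic4 (r = 0.837) and Cd14 (r = 0.837). Cd14 encodes a co-receptor for lipopolysaccharide and Vegfa an angiogenic growth factor. Rela was most like Atp1b3 (r = 0.889), Plac8 (r = 0.882) and Sptlc2 (r = 0.878), and Nfkbie like Incenp (r = 0.906), Limd1 (r = 0.866) and Arl6ip1 (r = 0.839). For Nfkb1 the order was Ppa1 (r = 0.923), Selenok (r = 0.89) and Ppp5c (r = 0.87), which became 0.569, 0.72 and 0.477 without the 2 farthest libraries. For Tnip1 it was Plekhj1 (r = 0.871), Il17ra (r = 0.856) and Tle4 (r = 0.82). Without the 2 farthest libraries, r was 0.745, 0.788 and 0.798 for the 3 genes of Nfkbiz, 0.794, 0.629 and 0.652 for those of Nfkbia, 0.784, 0.843 and 0.854 for those of Rela, 0.919, 0.832 and 0.632 for those of Nfkbie and 0.825, 0.655 and 0.742 for those of Tnip1. Between members, the highest values were those of Relb with Nfkbiz (r = 0.76) and Rela with Relb (r = 0.729).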

How the data were processed

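RNA from 100 sorted macrophages per library was heat-fragmented, barcoded per molecule, amplified and sequenced. Per the labels and methods, the authors mapped reads with STAR to mm10 with refFlat annotation and deposited, for each gene symbol in 12 libraries, the count of distinct molecules as a whole number. How multi-mapping reads, strand and barcode errors were treated was not given in the sources used here. Of the 24781 rows, 10966 held no molecule. The 30 pairs of same-group libraries differed beyond sampling noise (chi-square per degree of freedom 1.23 to 3.15), so none was counted as a copy of another. Limits on counts, such as a chi-square against counting noise, cover counting error only.

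Genes with a mean above 1 normalised molecule (9580) were tested with the quasi-likelihood test of edgeR 4.0.16 in R 4.3.3 (TMM, Benjamini-Hochberg over all tested genes), after checking the scripts on simulated data. The study's tool, DESeq2 (here 1.42.0), and limma-voom (limma 3.58.1) were alternatives. SEs were derived from the F statistic. All permutation tests were exact and two-sided over libraries. Same-numbered libraries deviated together only weakly (correlations -0.0048 to 0.126, above 0.1 in 1 of 6), so the numbers were not taken as pairs. The genes and lists were chosen with earlier results of these data known. Named genes were all members, of each list up to 4 genes with the smallest unadjusted p under 0.05 (the lowest 2 where none passed), and the 3 genes most like each member with a mean of at least 10. Rel, Tnf and Il1b were added outside this rule after their values were seen. Positions came from GENCODE M21 (GRCm38, the build of mm10), which differs from refFlat in gene models.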

Additional observations from a re-analysis of the deposited data

Results flagged for a closer look

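Dixon's test for a library far from the others of its group was run on 78 groups of 6 values, covering the 10 members, the other named genes, their sums and the library properties. Chance would flag about 3.9 of them, and 5 passed, none of which was a member. Saa3 had 80.2 normalised molecules in DMSO 5 and at most 1.02 in the other DMSO libraries, and 1.06 in picrotoxin 2, a single molecule, with 0 in the other picrotoxin libraries. Gzmb, which encodes a granule protease of cytotoxic lymphocytes, had 21.4 normalised molecules in picrotoxin 6 and 0 in the other picrotoxin libraries, and 0.993, again a single molecule, in DMSO 2. Csf1 had 9.2 normalised molecules in picrotoxin 5 and 1.06 to 3.15 in the other picrotoxin libraries.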

How the results depend on the processing

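No member had an adjusted p under 0.05 in any alternative fit that gave one, and DESeq2 gave one for Nfkbiz alone. Of 227 fold changes of members refitted, 205 kept their direction and 22 turned. The log2 fold change of Nfkbia turned to -0.021 in limma-voom, -0.040 with library totals, -0.00085 with every gene of at least 1 count, -0.010 with a mean above 10, -0.010 with the split of library numbers as a term, -0.15 in libraries 3 to 6 alone, -0.0081 without the Rn45s row and -0.049 without DMSO 3 and 5. Nfkb1 turned to -0.0011 and Nfkbie to -0.0016 with library totals, and Nfkbie to -0.096 in libraries 3 to 6 and -0.053 without DMSO 3 and 5. Leaving out 1 library at a time gave -0.18 to 0.13 for Nfkbia, -0.031 to 0.17 for Nfkb1, -0.40 to 0.0805 for Nfkb2 and -0.052 to 0.19 for Nfkbie. The cause was not tested. With a mean above 10, Nfkb2, Relb and Nfkbib were not tested.

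Genes past an adjusted p of 0.05 numbered 5 in edgeR, 3 in limma-voom, 14 with library totals, 81 with every gene of at least 1 count (of 13815 tested), 27 with the split as a term, 48 in libraries 3 to 6, 12 without Rn45s, 1 without DMSO 3 and 5 and 0 to 25 with 1 library left out (0 without DMSO 5, DMSO 6 or picrotoxin 2, 3 or 4, and 25 without DMSO 1). At an unadjusted p under 0.05 there were 740, 387 in DESeq2 and 397 with a mean above 10 (of 3741 tested). Of the 740, 352 were higher, against 220 of 746 with library totals. Members at an unadjusted p under 0.05 numbered 2 in limma-voom and in libraries 3 to 6, 0 without DMSO 3 and 5, and 0 (without picrotoxin 1) to 2 (without DMSO 1) with 1 library left out. The number of adaptors, 2, was 0 in DESeq2, with library totals and with a mean above 10, 1 with median-of-ratios factors, every gene of at least 1 count and without Rn45s, 1 that was lower and neither Irak2 nor N4bp1 without DMSO 3 and 5, and 0 to 4 with 1 library left out. The family and kinase list had 1 gene with library totals, 1 without DMSO 3 and 5, and 0 to 1 with 1 library left out. Target genes were 3 in DESeq2 and 4 to 8 with 1 library left out, and immediate-early genes were 7 in limma-voom.

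Pairing by library number as a replicate block gave 43 genes at an adjusted p under 0.05, and 2 of 6 libraries correlated best with their own number. With the block, 1 adaptor and 1 member passed the unadjusted threshold, the member being Nfkbiz (log2 fold change 0.35, unadjusted p = 0.00667, edgeR adjusted p = 0.347). At the depth here, members with fewer than 10 normalised molecules had intervals that reached down to 0.527-fold (Relb) and up to 1.72-fold (Nfkbib). A change inside the interval of a gene was not excluded for it. No limit of detection was worked out for any member.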

Other observations

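Some negative values round out the picture. Of the components that could act beside the 10 genes, Bcl3, a nuclear IκB protein, had 10 ± 3.05 normalised molecules in DMSO and 7.72 ± 1.86 in picrotoxin libraries, and no picrotoxin library exceeded the mean of the DMSO ones (log2 fold change -0.34, SE 0.27, edgeR adjusted p = 0.822). Nfkbid, another nuclear IκB protein, had 9.59 ± 1.01 and 8.74 ± 3.05 (log2 fold change -0.10, edgeR adjusted p = 0.968). The deubiquitinase Cyld had 11 ± 2.09 and 11.8 ± 2.03, and Tnip3, a relative of Tnip1, had 10.4 ± 4.04 and 10.4 ± 2.77, with edgeR adjusted p of 0.951 and 0.996. These genes were chosen after their values were seen.

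Other targets with an unadjusted p under 0.05 in edgeR were Tnfrsf1b, which encodes TNF receptor 2, at 16.6 ± 5.35 and 23.3 ± 4.24 (adjusted p = 0.568), Ccl7 at 88.1 ± 23.8 and 68.9 ± 8.03 (adjusted p = 0.574) and Csf1 at 6.32 ± 2.88 and 3.38 ± 3 (adjusted p = 0.622). Tnfrsf1b lay above the DMSO mean in 6 of 6 picrotoxin libraries, Ccl7 in 0 of 6 and Csf1 in 1 of 6.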
